A study of Mus musculus with 2 samples.

Results

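The 6 simple epithelial keratins Krt7, Krt8, Krt18, Krt19, Krt20 and Krt23 were described in single biliary epithelial cells of mouse liver. They were taken by name and are 6 of 55415 genes of the gene table, which lists 49 other keratin genes. Vimentin (Vim), the intermediate filament gene of mesenchymal and endothelial cells, was followed beside them. The study deposited 1 library labelled Sox9cKO and 1 library labelled Sox9con, and its title describes the former as deficient in Sox9, a transcription factor of bile duct cells. They are called the cKO-labelled and the control-labelled library here. The Cre driver, the age and the number of animals behind each library, and any allele or treatment shared by both, are not given in the sources used here. Fixed whole cells were barcoded by split-pool barcoding, in which cells pass through several rounds of wells and collect a barcode in each.

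Keratins build the intermediate filaments of epithelial cells. A filament forms from pairs of a type I and a type II keratin, and a keratin without a partner protein is degraded. Krt7 and Krt8 are type II keratins, and Krt18, Krt19, Krt20 and Krt23 are type I keratins. Hepatocytes hold only the pair Krt8 and Krt18, whereas bile duct cells add Krt7 and Krt19, which pathologists use to recognise them. Krt20 is best known from intestinal epithelium and urothelium, and Krt23 has been described in ductular cells of injured liver.

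The libraries held 2740 cells and 14856321 transcript counts (UMIs, counted by unique molecular identifiers) under the cKO label, and 3622 cells and 12811243 UMIs under the control label. After filtering and clustering without the keratins, Vim and Sox9, 2623 and 3389 cells formed the biliary fraction, and 82 and 114 cells were endothelial-like by their markers. Of 12 biliary markers, 11 or 12 were detected at 50 CPM or more in each of the 10 clusters of the biliary fraction (CPM expresses the UMIs of a gene relative to all UMIs of the same cells, brought to a common total). In 3 of those clusters the 10 leading genes held a marker of another cell class (Col3a1, Dcn and Col1a2 in the cluster led by Hsph1, Msln in the one led by Car4, Ltf in the one led by Muc4), so levels are also given by cluster. The Hsph1 cluster, 163 and 7 cells, includes 15 cells that separated as mesenchymal-like at a finer clustering. The libraries shared 0 cell barcodes. Biliary cells were 1.59 times as deep in the cKO-labelled library (median 5125 against 3223 UMIs per cell), while endothelial-like cells had 2351.5 and 2327.5. Sox9 itself was at 122 CPM (116 to 127, 95% Poisson interval) under the cKO label and 145 CPM (138 to 152) under the control label, and it was higher in the former in 10 of 20 pairs of wells. The log2 ratio of Sox9 stood at -0.25 (-0.35 to -0.16), with lower levels under the cKO label in 7 of the 8 sublibraries, sets of cells of both labels amplified apart. Sox9 counts therefore went with the labels in most sublibraries, which are parts of the same libraries, and did not separate them well by well. Within the clusters led by Car4, Muc6 and Muc4, with at least 100 cells of each library, Sox9 was higher under the cKO label. The log2 ratios there were 0.24 (-0.03 to 0.52), 0.62 (0.27 to 0.995) and 0.40 (-0.09 to 0.90), opposite in sign to the whole libraries. The deleted part of the gene is not given in the sources used here.

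With 1 library per group there is no test between the genotypes, and no p-value is given. The first barcoding round kept the libraries in separate wells, A11, A12, B1, B2 and B3 for the cKO label and D9, D10, D11 and D12 for the control label. Whether the wells of a library hold 1 cell suspension or several animals is not given in the sources used here, so their spread is not taken as that of replicates, and wells and libraries cannot be told apart. Intervals cover counting error only.

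Krt8 and Krt18, the pair found in all simple epithelia, were the most abundant of the 6 keratins. Scaled to transcript length, Krt18 was at 994 and 1665 CPM per kilobase (cKO-labelled, then control-labelled), Krt8 at 653 and 1189, and Krt19 at 499 and 873. Krt23 followed at 222 and 206. Krt7 stood at 29.9 and 40.9 over its 7049 bases of annotated exons, or at 51.5 and 70.4 over its longest transcript of 4094 bases. Krt20 was lowest of the 6, at 16.2 and 5.43. The order was the same in both libraries, with no overlap of the counting intervals between neighbours, and Vim lay below all 6 at 0.641 and 0.569 CPM per kilobase. The 6 genes held 146247 UMIs in the biliary fraction, 99.0% of all keratin UMIs. The other 49 keratin genes held 1468 UMIs in all, with 17 of them at 0 and only Krt80 and Krt17 at 200 or more.

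Krt8 was at 1278 CPM (1260 to 1297) with the cKO label and 2328 CPM (2301 to 2355) with the control label. Its levels were 1563, 1084, 1528, 1224 and 1145 CPM in wells A11, A12, B1, B2 and B3, and 1788, 2313, 3134 and 2468 CPM in wells D9, D10, D11 and D12. Every control-labelled well was above every cKO-labelled well. The log2 ratio of cKO-labelled over control-labelled was -0.86 (-0.89 to -0.84), and it was negative in 20 of 20 pairs of wells, from -1.53 to -0.19. Of 9373 genes with at least 200 UMIs, 3.17% had a log2 ratio as low or lower.

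Krt18, the type I partner of Krt8, followed it. Its levels were 1802, 1295, 1613, 1332 and 1251 CPM in the cKO-labelled wells and 1600, 2656, 3301 and 2500 CPM in D9, D10, D11 and D12. Well D9 lay below A11 and B1, and the other 3 control-labelled wells lay above all 5. The log2 ratio over whole libraries was -0.74 (-0.77 to -0.72) and was negative in 18 of 20 pairs.

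Krt19, a type I keratin typical of duct cells, was at 1132, 832, 979, 974.6 and 799.9 CPM in the cKO-labelled wells and at 1110, 1806, 2123 and 1726 CPM in the control-labelled wells, in the same order. Here too D9 was the control-labelled well that reached into the cKO-labelled range. The log2 ratio was -0.81 (-0.84 to -0.77), negative in 19 of 20 pairs.

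Krt7, the second type II keratin of duct cells, differed less. It ranged from 177 to 226 CPM over the 5 cKO-labelled wells and from 236 to 411 CPM over the 4 control-labelled wells, without overlap. The log2 ratio was -0.45 (-0.52 to -0.38), and the nearest pair of wells stood at -0.07.

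Krt20 went the other way. It was at 31.1, 35.3, 35.4, 29.7 and 23.5 CPM in the cKO-labelled wells and at 11.5, 8.94, 9.76 and 11.2 CPM in D9, D10, D11 and D12, so that all 5 wells lay above all 4. The log2 ratio was 1.58 (1.29 to 1.87), from 1.03 to 1.97 over the 20 pairs, and 0.992% of the 9373 genes had a ratio as high or higher. At a threshold of 2-fold, Krt20 was the 1 member of 6 above it under the cKO label, where 2.3% of all genes were, and 0 members were below it, against 1.76% of all genes. In either direction 1 of 6 members passed it, against 4.06%. Without well D9 the log2 ratios of Krt8 and Krt19 were each -1.01, so that 2 of 6 members were at least 2-fold lower, and 385 of all genes were so, where 165 were with all wells.

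Krt23 lay near the same level in both, at 310 to 408 CPM over the cKO-labelled and 295 to 349 CPM over the control-labelled wells, which overlap. Its log2 ratio of 0.11 (0.05 to 0.17) was positive in 14 of 20 pairs. Over all genes the median log2 ratio was -0.07, with 95% of genes between -0.92 and 0.95. Krt7 and Krt8 were lower in every pair of wells, as were 8.25% of all genes, and Krt20 was higher in every pair, as were 7.61%. The counting interval lay below 0 for 4 members (36.3% of all genes) and above 0 for 2 (22.8%). In the 8 sublibraries Krt7, Krt8, Krt18 and Krt19 were lower under the cKO label in 8 of 8, Krt20 higher in 8 and Krt23 higher in 7. How many of all genes did so is not given here, and the sublibraries are parts of the same libraries.

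**Figure D1:**
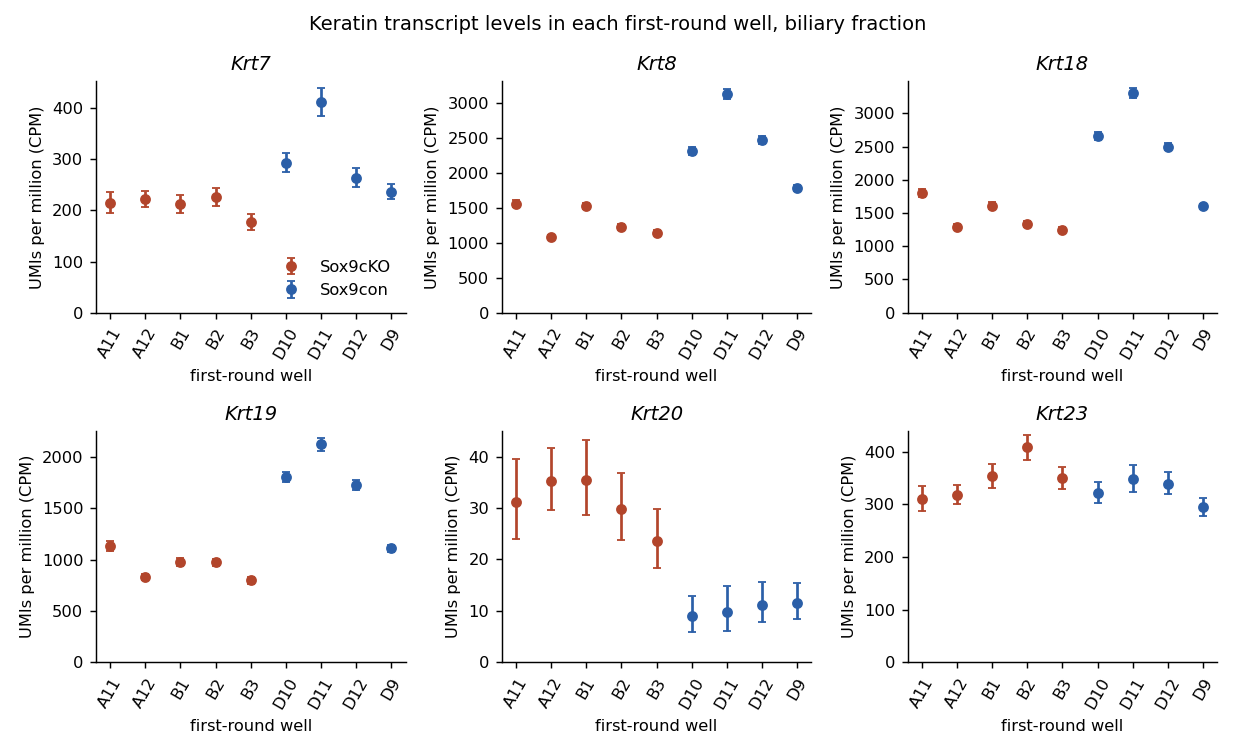
Level of each keratin (y axis, CPM in the biliary fraction of the well) in each first-round well (x axis), in red for the library labelled Sox9cKO and blue for the one labelled Sox9con. Points are wells and bars are 95% Poisson intervals. The blue wells are above all red wells for Krt7 and Krt8, D9 is the lowest blue well for 5 of the 6 genes shown, Krt20 being the exception, and for Krt20 the red wells, 23.5 to 35.4 CPM, lie above the blue ones.

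Depth moved with these levels. Summed over the 6 keratins, the level was 9328 CPM in the shallowest well, D11, with a median of 2388.5 UMIs per cell, and 5041 CPM in D9, the deepest control-labelled well, with 4344. In the cKO-labelled library it was 5052 CPM in the shallowest well, A11 (3527.5 UMIs), and 3787 CPM in the deepest, A12 (6479 UMIs). Counted per cell and not as CPM, the wells lay closer, with 23.7 to 26.6 keratin UMIs per cell in the control-labelled wells and 19.4 to 25.9 in the cKO-labelled wells. On that scale the log2 ratio was -0.25 for Krt8, -0.13 for Krt18 and -0.20 for Krt19, changed sign to 0.16 for Krt7, and reached 2.19 for Krt20 and 0.72 for Krt23.

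Among cells of like depth the lower levels of 3 keratins under the cKO label were seen throughout. How many of all genes were lower in every bin is not given here, and over whole libraries 58.2% of the tested genes were lower. In 6 bins of UMIs per cell, from 1000 to over 10000, the log2 ratio of Krt8 ran from -0.93 to -0.54, that of Krt18 from -0.78 to -0.30 and that of Krt19 from -0.67 to -0.54. Krt7 was lower in 5 of 6 bins, the exception being the deepest, with 148 and 37 cells. Krt20 was higher in 5 of 6, the exception being the shallowest, where the cKO-labelled cells held 1 UMI of it and the control-labelled cells 15. Krt23 was higher under the cKO label in the 3 bins below 4500 UMIs (0.23 to 0.55) and lower in the next 2 (-0.08 and -0.35), and in the deepest it stood at 0.29 (-0.01 to 0.60). Combined over the bins, the log2 ratios were -0.69 for Krt8, -0.53 for Krt18, -0.60 for Krt19, -0.35 for Krt7 and 0.01 for Krt23. The part that depth has in the remaining differences was not tested.

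**Figure D2:**
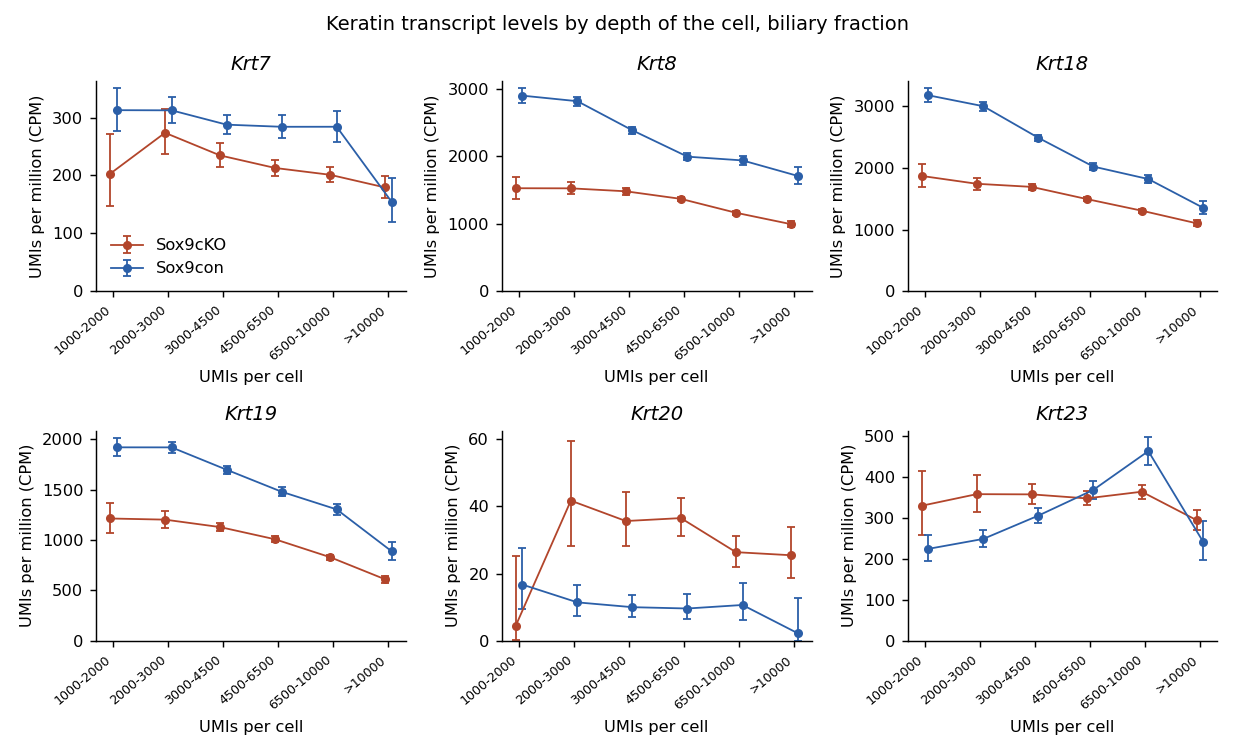
Level of each keratin (y axis, CPM) among cells grouped by their UMIs per cell (x axis), for both libraries. Points are summed counts of a bin with 95% Poisson intervals. Krt8, Krt18 and Krt19 are lower in the library labelled Sox9cKO in 6 of 6 bins, and the Krt23 lines cross. The share of all genes that are lower in 6 of 6 bins is not given here.

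At equal depth most biliary cells held the pair of Krt8 and Krt18. Cells were thinned at random to 2000 UMIs, which left 2483 cells of the cKO-labelled and 2817 of the control-labelled library and left out 140 and 572 shallower cells. A Krt8 UMI was then found in 87.3% (85.9 to 88.6, Clopper-Pearson) and 96.3% (95.5 to 96.9) of cells, and a Krt18 UMI in 89.6% and 94.9%. For Krt19 the shares were 74.2% and 83.2%, for Krt7 30.2% and 35.6%, and for Krt23 31.9% and 30.2%. The interval for Krt23, 30.1 to 33.8% against 28.6 to 32.0%, overlapped between libraries. A Krt20 UMI was found in 5.03% (4.21 to 5.97) and 1.99% (1.51 to 2.57) of cells. Unthinned, the cKO-labelled and control-labelled shares were 96.4% and 97.2% for Krt8, 96.7% and 97.8% for Krt18, 87.5% and 88.3% for Krt19, 51.4% and 46.1% for Krt7, 9.49% and 3.57% for Krt20, and 47.9% and 37.7% for Krt23. For Krt7 the order of the unthinned shares is opposite to that of the thinned shares and of the CPM.

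The same keratins in endothelial-like cells gave the background, since endothelium does not build keratin filaments. At 2000 UMIs, with 53 and 70 endothelial-like cells, the shares with a UMI were 28.3% and 20% for Krt8, 17.0% and 12.9% for Krt18, 17.0% and 20% for Krt19, 3.77% and 5.71% for Krt7, and 3.77% and 7.14% for Krt23, each below the biliary share of the same gene and library. For Krt20 they were 3.77% (0.460 to 13.0) and 0 of 70 cells, which allows a share of up to 4.29%. The biliary Krt20 share of the control-labelled library was under that limit. That of the cKO-labelled library lay within the interval of its endothelial-like cells. By share of cells Krt20 was therefore not separable from background in either library. Nor was it by level over all endothelial-like cells. Under the cKO label these stood at 44.2 CPM (22.1 to 79.1) against 31.2 CPM in biliary cells. Under the control label they stood at 5.77 CPM (0.699 to 20.8) against 10.46 CPM.

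The background was carried by few cells. Endothelial-like cells had a median of 1 keratin UMI under the cKO label and 0 under the control label, against 21 and 23 in biliary cells, and 10 cells held 69.5% and 73.9% of their keratin UMIs. Their summed level of the 6 keratins was 527 and 641 CPM, against 4222 and 6961 CPM in the biliary fraction. After the 5% of cells of each library with the highest doublet score were taken out, it was 256 CPM in each. Under the cKO label the 11 Krt20 UMIs of these cells lay in 3 cells, 7 of them in 1 cell, and 1 UMI was left in the 78 cells without high doublet scores.

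Krt20 UMIs were concentrated in a minority of cKO-labelled biliary cells. The 452 UMIs lay in 249 of 2623 cells, of which 100 held at least 2 UMIs and 47 at least 3, with a maximum of 8. In the control-labelled library 128 UMIs lay in 121 of 3389 cells, of which 5 held at least 2 and 1 at least 3. The cKO-labelled cells with 2 or more were found in 7 of the 10 biliary clusters. They were 6.42% (4.51 to 8.82) of the cluster led by Chst11, 5.68% (1.87 to 12.8) of Fanci, 4.88% of Vtn and 3.125% of Ly6a. In the clusters led by Car4, Muc4 and Muc6 they were 2.77%, 1.72% and 1.53%. These counts were not thinned, and the deeper cKO-labelled cells had more chance to hold a second UMI.

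Type I and type II keratins were then scored together in each cell at 2000 UMIs. Biliary cells with both types made up 87.8% (86.4 to 89.1) under the cKO label and 95.9% (95.1 to 96.6) under the control label. Over the wells the share with both was 91.2%, 85.5%, 91.4%, 87.4% and 83.9% in A11, A12, B1, B2 and B3, and 92.9%, 96.0%, 98.3% and 97.2% in D9, D10, D11 and D12, without overlap between labels. Cells with only a type I UMI made up 8.46% and 2.59%, cells with only a type II UMI 2.58% and 1.21%, and cells with neither 1.17% and 0.319%. The share with both falls when the level of either type falls, and whether pairing itself differed between labels was not tested. Without thinning, both types were found in 96.9% of cells under the cKO label and in 97.2% under the control label. In endothelial-like cells at 2000 UMIs both types were found in 15.1% (6.75 to 27.6) and 8.57% (3.21 to 17.7), and neither in 54.7% and 54.3%.

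**Figure D3:**
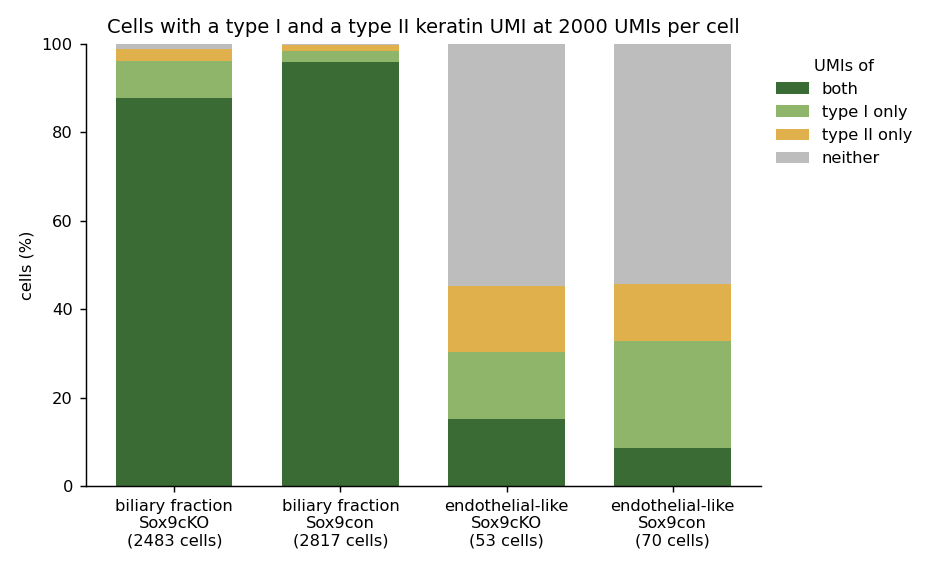
Share of cells (y axis, percent) with UMIs of both a type I and a type II keratin, of 1 type or of neither, at 2000 UMIs per cell, in biliary and endothelial-like cells of each library. Both types were found in 87.8% and 95.9% of biliary cells and in 15.1% and 8.57% of endothelial-like cells.

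Within a library Krt18, Krt19 and Krt23 UMIs were more frequent in cells with a Krt8 UMI, and Krt7 UMIs in cells with a Krt19 UMI. The pattern was thus not particular to the pair of Krt8 and Krt18. A Krt18 UMI was found in 91.7% (90.4 to 92.8) of cKO-labelled cells with a Krt8 UMI and in 75.2% (70.1 to 79.9) of those without, and in 95.5% and 80.0% of control-labelled cells. Krt19 UMIs were found in 76.1% and 61.0% of cKO-labelled cells with and without Krt8, and in 84.0% and 61.9% of control-labelled cells. Krt23 UMIs were found in 33.0% and 24.1% of these cKO-labelled cells. In control-labelled cells the Krt23 shares were 30.6% (28.8 to 32.3) and 21.9% (14.4 to 31.0), with overlapping intervals. A Krt7 UMI was found in 34.6% (32.4 to 36.8) of cKO-labelled cells with a Krt19 UMI and in 17.8% (14.9 to 21.0) of those without, and in 39.0% and 18.4% of control-labelled cells. For Krt20 the intervals overlapped, with a UMI in 4.75% (3.89 to 5.73) of cKO-labelled cells with Krt8 and 6.98% (4.43 to 10.4) of those without, and in 5.33% and 4.91% of those with and without Krt7.

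The balance of Krt8 to Krt18 varied less from cell to cell than that of Krt8 to Krt19, though more than counting error gives. Krt8 UMIs per Krt18 UMI were 0.895 under the cKO label and 0.973 under the control label. Among cells with at least 10 UMIs of the pair (1848 and 2587 cells), the median share of Krt8 was 46.7% and 50%. The SD of that share was 14.5 and 14.0 percentage points, where counting error alone gives 12.3 and 11.9. For Krt8 with Krt19 the SD was 19.03 and 19.18 points against 12.7 and 12.2 from counting, a wider spread. Krt18 with Krt19, both of type I, had a like SD of 19.5 and 19.6 points. In the thinned cells the Spearman correlation was 0.25 and 0.43 for Krt8 with Krt18. It was 0.18 and 0.25 for Krt8 with Krt19, and 0.18 and 0.25 for Krt18 with Krt19. Over wells Krt8 UMIs per Krt18 UMI ranged from 0.837 in A12 to 1.12 in D9, and the other 7 wells lay from 0.867 to 0.987.

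The promoters of Krt8 and Krt18 are shown because these genes had the closest balance and are neighbours among the protein-coding genes of chromosome 15, and that of Krt20 because it differed in direction. Krt20 lies next to Krt23 on chromosome 11. Each is the 250 bases before the RefSeq start, 5′ to 3′ on the gene's strand, in GRCm38.p6 (chr15:102004343-102004592 minus strand for Krt8, chr15:102027966-102028215 plus strand for Krt18, chr11:99438154-99438403 minus strand for Krt20). Capitals mark matches to TATAAA, the TATA box.
Krt8: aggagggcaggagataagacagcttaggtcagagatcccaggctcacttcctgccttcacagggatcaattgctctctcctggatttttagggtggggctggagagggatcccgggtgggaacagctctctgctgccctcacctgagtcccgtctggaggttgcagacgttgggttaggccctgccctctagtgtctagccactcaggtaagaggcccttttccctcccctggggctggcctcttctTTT
Krt18: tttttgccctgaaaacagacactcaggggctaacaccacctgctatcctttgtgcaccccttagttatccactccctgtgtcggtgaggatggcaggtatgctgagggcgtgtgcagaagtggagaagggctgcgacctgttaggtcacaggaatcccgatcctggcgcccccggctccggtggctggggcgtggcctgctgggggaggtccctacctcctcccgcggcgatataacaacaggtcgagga
Krt20: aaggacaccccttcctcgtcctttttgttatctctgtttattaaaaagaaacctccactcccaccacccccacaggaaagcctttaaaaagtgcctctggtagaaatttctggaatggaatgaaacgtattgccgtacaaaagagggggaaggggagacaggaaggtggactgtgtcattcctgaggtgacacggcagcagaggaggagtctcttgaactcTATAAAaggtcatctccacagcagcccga
The counts were made on another build (GRCm39, per the submitters' processing notes), so these positions are not those of the deposited data. In windows of 250 bases before and 50 after the start, 4 motifs were searched on both strands, TATAAA, the GC box GGGCGG, the AP-1 site TGANTCA and the SOX core ACAAT. Of 32851 promoters, 13.6%, 35.7%, 7.81% and 31.0% hold them. Krt20 holds TATAAA 29 bases before its start. Krt8 holds it on each strand across its annotated start, of which the last 3 bases shown are a part. In Krt18 none of the 4 was found, Krt7 holds 4 GC boxes, and Krt23 holds ACAAT 90 bases before its start. A match is a description of letters and not a binding site.

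Keratin levels differed between clusters, and Krt8 and Krt18 least among the abundant members. Over biliary clusters with at least 50 cells, 8 under the cKO label and 6 under the control label, the highest level was 2.66 and 1.85 times the lowest for Krt8 and 2.43 and 1.88 times for Krt18. It was 5.96 and 4.46 times for Krt19, 3.26 and 5.56 times for Krt7, and 5.65 and 8.51 times for Krt23. The lowest cKO-labelled level of each of these genes was that of the Hsph1 cluster, which has mesenchymal markers among its leading genes, at 672 CPM for Krt8, 786 for Krt18, 243 for Krt19, 115 for Krt7 and 133 for Krt23. This cluster also held 12 of 12 biliary markers. Only 8 cKO-labelled cells were mesenchymal-like, where the cluster has 163, and the reason for its low keratin levels was not tested. Without the Hsph1 cluster the cKO-labelled range was 1.85-fold for Krt8 and for Krt18, 2.83-fold for Krt19, 3.16-fold for Krt7 and 4.55-fold for Krt23. Clusters were formed without these genes, and since they share libraries and depth, these ranges are a description.

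Krt19 and Krt7 were highest in the cluster led by Car4, at 1449 and 2341 CPM for Krt19 and 374 and 510 CPM for Krt7. In the cluster led by Adgrv1, almost all of it control-labelled (687 of 732 cells), Krt19 was at 611 CPM and Krt7 at 91.7 CPM while Krt8 was at 2368 CPM. That gave 0.258 Krt19 UMIs for each Krt8 UMI there, against 1.11 in the cKO-labelled cells of the cluster led by Muc4. Krt23 peaked in the cluster led by Muc6, at 753 and 1041 CPM. Krt20 was at 8.76 to 51.7 CPM (13.5 to 51.7 without the Hsph1 cluster) over the cKO-labelled and 7.77 to 14.4 CPM over the control-labelled clusters. Krt8 UMIs per Krt18 UMI stayed between 0.854 and 1.01 in all 14 of these cluster and library combinations. Just under the limit of 50 cells, the 45 cKO-labelled cells of the Adgrv1 cluster were at 0.738. The 47 control-labelled cells of the Chst11 cluster were at 1.05.

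**Figure D4:**
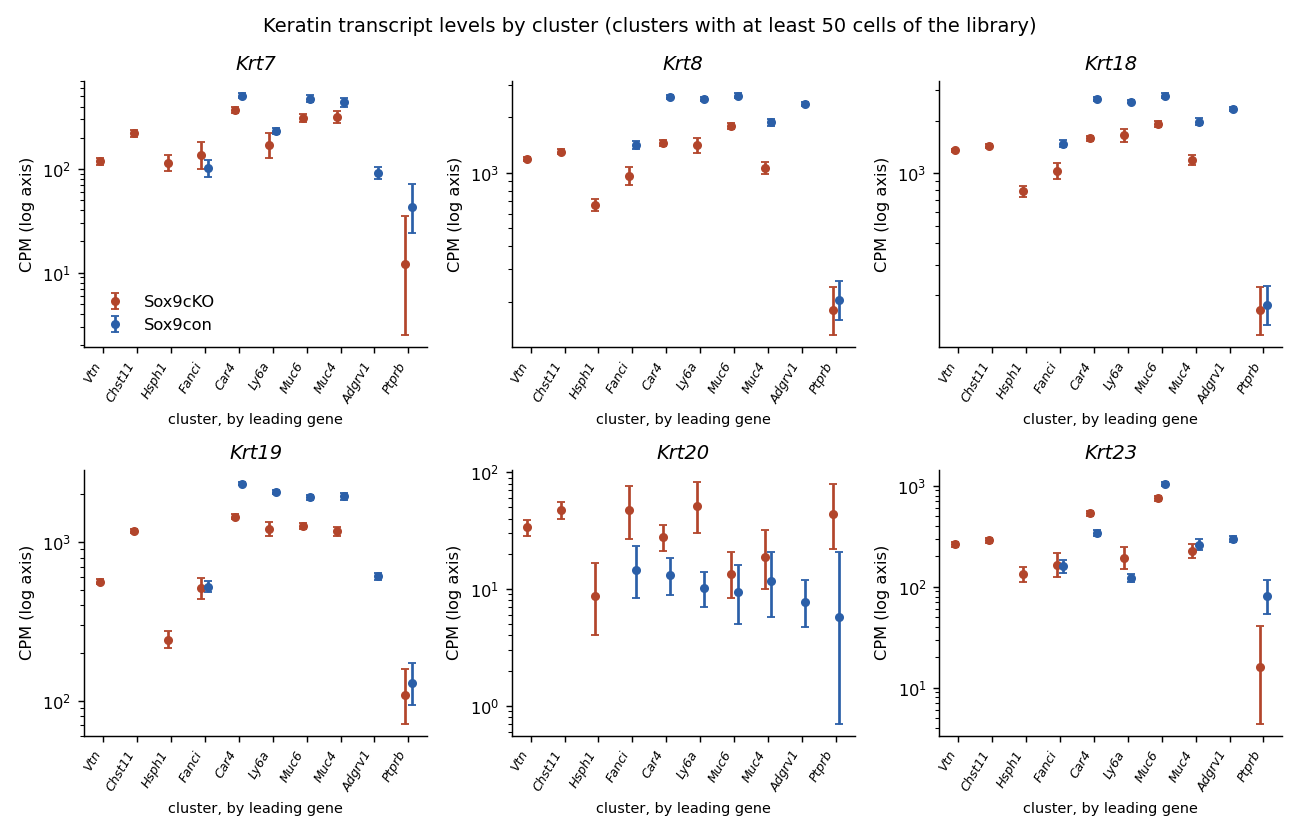
Level of each keratin (y axis, CPM, log axis) in each cluster with at least 50 cells of the library, named by its leading gene (x axis); bars are 95% Poisson intervals. The cluster led by Ptprb is endothelial-like and lies lowest in both libraries for 5 of the 6 keratins, and for Krt20 in the control-labelled library alone; Krt23 peaks in the cluster led by Muc6, at 753 and 1041 CPM.

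The libraries filled different clusters (758 cells of the cluster led by Vtn were cKO-labelled and 1 control-labelled), so the comparison was repeated within the 3 biliary clusters with at least 100 cells of each. In the clusters led by Car4, Muc6 and Muc4 the log2 ratio was -0.82, -0.55 and -0.82 for Krt8, -0.74, -0.54 and -0.73 for Krt18, -0.69, -0.61 and -0.73 for Krt19, and -0.45, -0.62 and -0.48 for Krt7. All 12 values had counting intervals below 0, and the share of all genes with such intervals in these clusters is not given here. For Krt20 the log2 ratio was 1.07 (0.44 to 1.75), 0.51 (-0.54 to 1.65) and 0.66 (-0.59 to 1.99), so the interval left out 0 in the first alone. Krt23 differed in direction, with 0.66 (0.53 to 0.79) in the Car4 cluster and -0.47 (-0.58 to -0.35) in the Muc6 cluster, where the whole libraries gave 0.11. Combined over all clusters, the ratios were -0.70 for Krt8, -0.60 for Krt18 and -0.63 for Krt19. The cKO-labelled cells were deeper in each of the 3 clusters (median 4489 against 3307, 4527.5 against 3996 and 5876.5 against 4709 UMIs).

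Over the 16 combinations of cluster and library with at least 50 cells, endothelial-like ones included, Krt18 was the gene most like Krt8 among 9373 genes (Pearson r of log2(CPM + 10) 0.997, and 0.996 over the 14 without the endothelial-like cells). Tnfrsf12a, the receptor of the cytokine TWEAK, and Epcam, an epithelial adhesion molecule, came next for Krt8 (0.979 and 0.971). For Krt19 they were Gjb1, a gap junction connexin, Anxa2 and Dhx32 (0.973, 0.973 and 0.969), and Krt8 stood at 0.896. For Krt7 they were Smpd3, Lgals3 and Tmem43 (0.972, 0.967 and 0.960), and for Krt23 Parva, Map2k4 and Lpp (0.917, 0.901 and 0.895). Krt20 had no gene above 0.79 (Dnajb12), and its correlation with each of the other 5 members was between -0.21 and -0.07. Over the 14 without the endothelial-like cells, several of these values changed. Tagln2 and Nlrp4e came next for Krt8 (0.986 and 0.976), and Plpp2, Scamp2 and Anxa7 led for Krt19 (0.967, 0.962 and 0.951). Krt7 with Krt8 went from 0.81 to 0.47. Krt20 was most like Lepr (0.872) and stood at -0.44 with Krt8 and -0.41 with Krt18. Combinations of 1 library share its depth and preparation, and these values are descriptions.

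**Figure D5:**
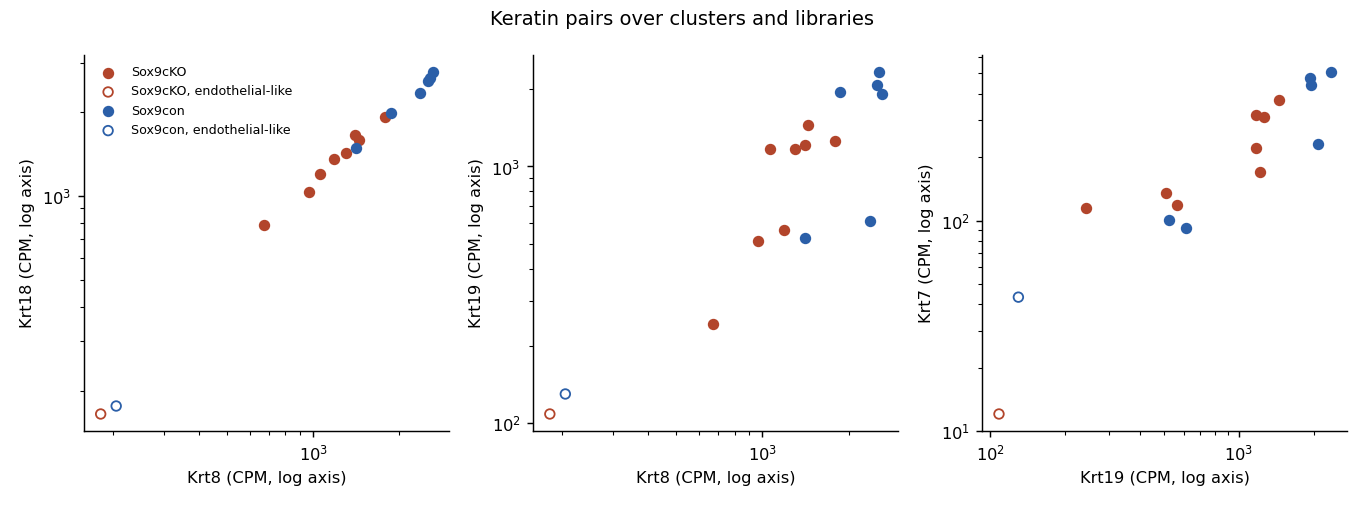
Levels of keratin pairs (both axes CPM, log axes) over the combinations of cluster and library with at least 50 cells; open circles are endothelial-like cells. Krt18 lies along a line with Krt8 (r 0.997), whereas Krt19 varies at a like Krt8 level, as in the blue point at 2368 CPM of Krt8 and 611 CPM of Krt19.

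Vimentin was close to absent from the biliary fraction. It was at 3.04 CPM (2.21 to 4.08; 44 UMIs) with the cKO label and 2.70 CPM (1.86 to 3.79; 33 UMIs) with the control label, against 185 and 144 CPM in the endothelial-like cells. Of the 50 Vim UMIs of the control-labelled endothelial-like cells, 25 lay in 1 cell. Without the cells of high doublet score the endothelial-like levels were 194 and 96.2 CPM. The log2 ratio of Vim in the biliary fraction was 0.17 (-0.51 to 0.87). The 8 and 7 mesenchymal-like cells held 23 and 8 of the UMIs, and without them the level was 1.46 and 2.05 CPM. At 2000 UMIs a Vim UMI was found in 0.443% and 0.497% of biliary cells and in 32.1% and 15.7% of endothelial-like cells. Among cells with any of the 6 keratins, a Vim UMI was found in 6 of 2454 under the cKO label (0.244%) and in 14 of 2808 under the control label (0.499%). Among the 29 cKO-labelled cells of the biliary fraction with no keratin UMI, 5 held one (17.2%, 5.85 to 35.8), and 4 of those 5 were mesenchymal-like; without the mesenchymal-like cells it was 1 of 24 (4.17%, 0.105 to 21.1). Among 9 such control-labelled cells 0 did, which allows up to 33.3%.

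Lists of genes drawn up around the keratin cytoskeleton were then counted, with their median beside the -0.07 of all genes. Of all 9373 genes 41.8% were higher and 58.2% lower under the cKO label, with the counting interval above 0 for 22.8% and below 0 for 36.3%. Of 27 other keratins 2 had at least 200 UMIs, Krt80 (log2 ratio -0.44) and Krt17 (0.57). Of 16 other intermediate filament genes 3 did, and Lmna, a nuclear lamin, was lower (-0.66), Lmnb1 stood at -0.15 and Nes (nestin) was higher in 20 of 20 pairs of wells (0.75). Among 16 genes of keratin anchoring and desmosomes, 7 were higher and 9 lower, with a median of -0.04 and the counting interval above 0 for 7 and below 0 for 5. Dst and Plec, giant linkers that tie keratin filaments to hemidesmosomes and other filaments, were highest (1.03 and 0.69) and were higher in 20 of 20 pairs. Perp, a desmosome protein, and Itga6, an integrin of hemidesmosomes, were lowest (-0.70 and -0.34) and were lower in 20 of 20 pairs.

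Of 11 genes listed as keratin-binding or keratin-regulating, 4 were higher and 7 lower (median -0.30), all 7 with intervals below 0. They ran from -0.75 for Krtcap3 and -0.74 for Krtcap2, lower in 20 of 20 pairs, to 0.24 for Ktn1 and 0.36 for Fbf1. Whether each gene of this list binds or regulates keratins was not checked, and the names Krtcap2, Krtcap3 and Ktn1 do not show it. Of 17 epithelial junction and polarity genes 4 were higher and 13 lower (median -0.20), all 13 with intervals below 0. The claudins Cldn3 and Cldn7, of the tight junction, were lowest (-1.42 and -0.92), Cldn3 being lower in 20 of 20 pairs, and Esrp1, an epithelial splicing factor, and Tjp1, a tight junction scaffold, were highest (0.17 and 0.25). Whether the lists differ from the other genes was not tested.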

How the data were processed

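Transcripts were counted per cell in 2 libraries of mouse liver biliary epithelial cells. The authors deposited whole-number UMI counts per cell and gene, made on a genome named mg39 per the file headers (GRCm39 per the submitters' processing notes). The aligner, the annotation release, the use of strand and the choice of cells are not given in the sources used here. In GENCODE vM21 a gene on the other strand overlaps Krt7 (Gm671) and Krt8 (Gm36026), and reads of overlapping genes cannot be told apart without strand. Krt8-ps, a pseudogene, had 0 UMIs.

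Everything else was computed here. Cells were kept with 500 or more genes, 1000 or more UMIs and a mitochondrial share of 15% or less, which removed 27 cells of the Sox9cKO and 115 of the Sox9con library. Scrublet marked 12 of the 6220 cells that passed (0.193%), which is too few to show that the caller worked, and these were removed, leaving 2705 and 3503 cells. Clustering with scanpy 1.11.5 used 2000 variable genes, 30 components, 15 neighbours and Leiden resolution 0.5, without keratins, Vim and Sox9, and gave 11 clusters named from marker lists at 50 CPM with at least 3 markers. The biliary fraction is all clusters but the endothelial-like one, and its name rests on the detected markers and the labels.

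Counts were summed per library, with exact 95% Poisson intervals for levels, Clopper-Pearson intervals for shares and conditional binomial intervals for ratios. The log2 ratio has 0.5 counts added. Genes reaching 200 UMIs in the libraries together were compared, and a gene with a ratio of 2 or more was counted as apart. For a share of 0, a floor of 3 counts was used. With 1 library per group no test was made. Wells are used to show spread within a library. Lengths are exon unions of GENCODE vM21. Promoters are from RefSeq (GRCm38.p6), for 5 of the 6 members. The ratio and its interval were tested on simulated counts. Tools were Python 3.11.15, numpy 2.4.6, scipy 1.17.1, R 4.3.3, edgeR 4.0.16 and DESeq2 1.42.0, the last 2 for scaling factors only.

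The members and lists were chosen with earlier results of these data known. Named were the members, Vim and Sox9, the 2 highest and 2 lowest of each list among genes with at least 200 UMIs, and the 3 genes most like each member by Pearson correlation. Genes that lead a cluster are named only to identify it. The alternatives tried were other scalings, filters, thinning depths and clusterings, and each well left out.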

Additional observations from a re-analysis of the deposited data

How the results depend on the processing

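No paired analysis was possible because each group has 1 sample. Of 267 alternative values, 180 stayed within the counting interval of the reported value (or, for gene counts, within 1.5 times), 85 moved outside it and 2 changed sign. The counting intervals are narrow, so most moves are small; unless the setting itself shows it, the cause was not tested. Cell classes were kept, not formed again, under the stricter filter and the removal of high doublet scores. Changes of sign were both of Krt7. Its log2 ratio was 0.16 as UMIs per cell, and its share of cells was 5.27 points higher, not lower, under the Sox9cKO label without thinning; both settings leave the depth of the cells in.

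With TMM factors the log2 ratio was -0.37 for Krt7, -0.78 for Krt8, -0.66 for Krt18, -0.73 for Krt19 and 0.19 for Krt23, and with DESeq2 size factors -0.36, -0.77, -0.65, -0.71 and 0.20. These scalings moved the median of all genes from -0.07 to 0.01 and 0.03, and the share of higher among genes at least 2-fold apart from 56.7% to 68.5% and 69.9%. Without mitochondrial and ribosomal RNA in the total it was -0.83 for Krt8, -0.71 for Krt18 and -0.77 for Krt19. As a mean over cells it was -0.78 for Krt18 and 0.25 for Krt23, with the stricter filter -0.72 for Krt18, and with thinned cells -0.75 for Krt19. The settings above were planned. The 4 given next, bins of depth, clusters, UMIs per cell and the expected share over all draws, were chosen after seeing the data. So were the cluster ranges and the Vim share given without mesenchymal-like cells. Over bins of depth the ratios were -0.35 for Krt7, -0.69 for Krt8, -0.53 for Krt18, -0.60 for Krt19 and 0.012 for Krt23. Over clusters they were -0.70 for Krt8, -0.60 for Krt18 and -0.63 for Krt19. As UMIs per cell they were -0.25 for Krt8, -0.13 for Krt18, -0.20 for Krt19, 2.19 for Krt20 and 0.72 for Krt23. The expected share over all possible draws of the thinning moved no share or pairing value outside its interval.

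Leaving out each well in turn gave log2 ratios of -0.57 to -0.31 for Krt7, -1.01 to -0.75 for Krt8, -0.95 to -0.62 for Krt18, -1.01 to -0.71 for Krt19, 1.505 to 1.66 for Krt20 and 0.046 to 0.15 for Krt23. The outer values came without D9 and without D11 for Krt7, Krt8, Krt18 and Krt19; for Krt23 the log2 ratio of 0.11 was 0.046 without B2. Share differences were -7.44 to -3.16 points for Krt7, -9.90 to -8.13 for Krt8, -7.08 to -4.62 for Krt18, -11.5 to -8.07 for Krt19, 2.80 to 3.21 for Krt20 and 0.419 to 2.22 for Krt23, and both types were found in 86.9 to 88.7% of Sox9cKO and 95.3 to 97.0% of Sox9con cells. Genes at least 2-fold lower were 165, and 111 to 385 with a well left out. The 385 came without D9, and 2 members, Krt8 and Krt19, were among them. The number of genes tested with a well left out is not given here, so these counts are not shares. Genes at least 2-fold higher were 216, and 174 to 245 with a well left out.

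At 1000 UMIs the share difference was -17.1 points for Krt8, -13.2 for Krt18, -11.5 for Krt19 and 1.79 for Krt20, and at 3000 UMIs -4.05 for Krt8 and -2.95 for Krt18. Without thinning it was -0.780 for Krt8, -1.04 for Krt18, -0.761 for Krt19, 5.92 for Krt20 and 10.1 for Krt23. Another draw gave -6.83 for Krt18. Both types were found in 66.4%, 95.1% and 96.9% of Sox9cKO cells and in 84.7%, 98.4% and 97.2% of Sox9con cells at 1000 UMIs, at 3000 UMIs and unthinned, and in 95.1% of Sox9con cells in another draw. With Krt18 and Krt8 alone as the pair, they were found in 80.0% and 91.9%. The endothelial-like level was 256 CPM in both libraries without the cells of high doublet score, and 905 CPM in the Sox9con library at resolution 1.0. With at least 100 UMIs, 268 genes were at least 2-fold lower, and with at least 20 UMIs 743 were lower and 663 higher. Depth limits Krt20 and Vim most, with 452 and 128 UMIs of Krt20 and 44 and 33 of Vim in the libraries.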

Other observations

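The 28 cells of the cluster led by Fyb and Mctp1 (17 and 11), whose 10 leading genes include the tuft cell genes Dclk1, Gnat3 and Rgs13, held Krt18 at 1579 CPM (1343 to 1844) under the cKO label and 3727 CPM (3104 to 4437) under the control label. Krt8 was at 1132 and 2129 CPM there, and Krt8 UMIs per Krt18 UMI were 0.717 and 0.571. Biliary clusters with at least 50 cells of a library had 0.854 to 1.01. The low ratio was not particular to these cells, as the 45 cKO-labelled cells of the cluster led by Adgrv1 were at 0.738. Krt19, at 169 CPM (98.3 to 270.3) and 237 CPM (102 to 466), was below the level of every biliary cluster with at least 50 cells of the same library, although under the cKO label its interval overlapped that of the Hsph1 cluster (243 CPM, 214 to 275). Krt7 had 5 and 4 UMIs, too few to place its level in the control-labelled cells (118 CPM, 32.2 to 302.9). Sox9 had 10 UMIs in the 17 cKO-labelled cells and 0 in the 11 control-labelled cells, where 3 UMIs would be 88.7 CPM.

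Krt23 UMIs were spread unevenly among cells. The cKO-labelled library held 5025 Krt23 UMIs in 1256 of 2623 cells, 587 of them with at least 3 and a maximum of 46, and the control-labelled library 3942 UMIs in 1279 of 3389 cells, 466 with at least 3 and a maximum of 34.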
